A study of Homo sapiens with 16 samples.

Results

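Cancer-testis antigen genes were followed across RNA-sequencing libraries of 2 human lung adenocarcinoma cell lines. The members are the protein-coding genes whose symbol begins with MAGEA, MAGEB, MAGEC, GAGE, PAGE, XAGE, SSX, CT45, CT47 or CTAG, together with PRAME and MEIOB. The rule took 92 of the 58735 genes of the tables, and 83 of the 92 lie on the X chromosome. It also took 7 genes that share a prefix but belong to other families, SSX2IP and 6 CTAGE genes, which leaves 85 antigen genes. NCI-H1975 cells, which carry mutant EGFR, were sampled in 3 groups of 4 libraries each: a chloroform fraction of Flos Magnoliae (magnolia flower bud), magnolin (a lignan of that plant) and control. Parental HCC827 cells, a second EGFR-mutant line, gave 2 libraries. All groups are labelled wild type. The labels state no dose, exposure time or vehicle, and they do not describe the makeup of the fraction. Nothing in the labels says that replicates were separate cultures, so the spread behind each p-value is that between libraries and may be technical.

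Cancer-testis antigens are made mainly by male germ cells and are silent in most adult tissues, where their promoters carry DNA methylation. Many tumours turn some of them on again, and the proteins can then be seen by T cells. Most of the X-linked families arose by recent duplication, so their copies are nearly identical and short reads are hard to place among them. MAGE proteins bind ubiquitin ligases such as TRIM28, PRAME is a substrate receptor of a cullin ubiquitin ligase, and MEIOB binds single-stranded DNA during meiotic recombination in mice.

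Promoter sequences are shown for the members that the results turn on, because they let the near-identical copies be seen. They are RefSeq sequences of GRCh38.p14, 250 bases up to an annotated start, read 5′ to 3′ on the gene's own strand, with every CpG in capitals. RefSeq starts differ from the gene bounds deposited with the FPKM, and each window shown lies at least in part inside those bounds. MAGEA3 (chrX:152698544-152698793, plus strand) and MAGEA6 (chrX:152769690-152769939, minus strand) have the same 250 bases with 15 CpG. MAGEB2 (chrX:30215313-30215562, plus strand) also has 15 CpG. CT45A1 (chrX:135713389-135713638, plus strand) and CT45A7 (chrX:135837080-135837329, minus strand) have 7 and 8 CpG, and 226 of their 236 aligned positions (95.8%) were identical. XAGE1A (chrX:52495627-52495876, plus strand) and XAGE1B (chrX:52517013-52517262, minus strand) share 1 window base for base, with 14 CpG. The XAGE1B window lies wholly inside the deposited bounds of that gene (chrX:52512077-52520803). PRAME (chr22:22559266-22559515, minus strand) has 9 CpG before its most upstream start.
MAGEA3 and MAGEA6: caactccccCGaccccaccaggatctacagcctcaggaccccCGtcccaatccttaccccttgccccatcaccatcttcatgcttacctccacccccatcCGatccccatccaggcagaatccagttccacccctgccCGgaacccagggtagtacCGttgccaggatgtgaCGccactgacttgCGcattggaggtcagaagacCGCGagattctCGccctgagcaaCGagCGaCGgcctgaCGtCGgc
MAGEB2: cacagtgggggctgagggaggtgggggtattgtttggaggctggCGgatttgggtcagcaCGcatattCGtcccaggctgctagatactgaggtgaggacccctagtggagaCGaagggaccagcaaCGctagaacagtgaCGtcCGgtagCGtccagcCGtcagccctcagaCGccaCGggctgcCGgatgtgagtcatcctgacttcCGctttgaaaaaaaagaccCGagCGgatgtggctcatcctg
CT45A1: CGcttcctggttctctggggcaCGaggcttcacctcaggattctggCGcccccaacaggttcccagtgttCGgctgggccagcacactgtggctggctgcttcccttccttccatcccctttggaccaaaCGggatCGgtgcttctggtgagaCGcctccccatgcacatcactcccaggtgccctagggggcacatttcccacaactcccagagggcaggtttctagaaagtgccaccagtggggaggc
CT45A7: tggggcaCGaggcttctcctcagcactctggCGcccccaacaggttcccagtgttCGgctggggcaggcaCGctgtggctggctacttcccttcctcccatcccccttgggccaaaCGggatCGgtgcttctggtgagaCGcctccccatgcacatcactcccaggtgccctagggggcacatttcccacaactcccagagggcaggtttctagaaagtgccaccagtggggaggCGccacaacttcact
XAGE1A and XAGE1B: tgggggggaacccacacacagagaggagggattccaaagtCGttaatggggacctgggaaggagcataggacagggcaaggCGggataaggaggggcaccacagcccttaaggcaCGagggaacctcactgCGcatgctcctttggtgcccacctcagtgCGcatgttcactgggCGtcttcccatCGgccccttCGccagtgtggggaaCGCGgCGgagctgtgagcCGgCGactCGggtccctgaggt
PRAME: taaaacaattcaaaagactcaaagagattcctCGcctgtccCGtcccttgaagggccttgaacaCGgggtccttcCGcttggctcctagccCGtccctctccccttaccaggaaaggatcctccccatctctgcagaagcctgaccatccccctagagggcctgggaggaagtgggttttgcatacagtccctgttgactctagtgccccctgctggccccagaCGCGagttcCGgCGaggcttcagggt

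RefSeq promoter entries matched 64 of the 92 members, 57 of them among the 85 antigen genes. At the most upstream start of each antigen gene, the CpG number ran between 1 and 18 with a median of 8, against a median of 11 over 35116 promoters of all genes. That wider set counts every annotated start, not only the most upstream, so the medians are not like for like. The same holds for the shares of all promoters given below. Over all annotated starts, the largest set with the same 250 bases was of 9 GAGE members. The letters GGATGTG, searched on both strands after the MAGE promoters had been read, were present in 13 of the 23 MAGEA, MAGEB and MAGEC members with an entry. They were present in 3.52% of all promoters, and they stand in the MAGEA3 and MAGEB2 sequences above. The letters ACTTCCG, also searched on both strands, were present in 3 of the 57 antigen genes with an entry and in 5.69% of all promoters. Each match is a description of the sequence and was not tied to any measured value.

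Levels are FPKM, read numbers scaled by gene length and a size factor of each library, as deposited by the authors. Median-ratio factors of the deposited values were equal within a set (1.0092 in set A and 1.0093 in set B). The tables were normalized separately, so tests stayed within a table. The NCI-H1975 libraries come in set A (replicates 1 and 2 of each group) and set B (replicates 3 and 4). Reads per gene were rebuilt from FPKM and gene length, which gave depths of 15.9 and 16.4 M reads for the HCC827 libraries, 16.0 to 17.0 M for those of set B and 18.4 to 21.3 M for those of set A. Before any result, the replicate 1 libraries of set A stood apart: EPCAM, an epithelial adhesion protein, was at 172 to 193 FPKM in them, against 9.62 to 14.4 FPKM in the replicate 2 libraries and 7.65 to 13.0 FPKM in set B. CDH1, the epithelial cadherin, followed the same split. HCC827 had 159 and 152 FPKM of EPCAM. The 6 epithelial markers were detected in all libraries, the lung factor NKX2-1 was at 52.0 and 55.9 FPKM in HCC827 but only 1.61 to 9.06 FPKM in NCI-H1975, and the germ cell marker DAZL was at 0 throughout.

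Most antigen genes were silent in both lines. No read fell on 54 of the 92 members in any of the 14 libraries, and 81 never reached 1 FPKM in 2 libraries of a table. The whole CT47 family (13 genes) and the CTAG family (3 genes, including the NY-ESO antigen gene CTAG1B) had 0 reads in all libraries. In the GAGE family 12 of 13 genes had none, and GAGE10 peaked at 0.450 FPKM. The SSX transcriptional repressors peaked at 0.0786 FPKM in SSX1, and the PAGE genes at 0.632 FPKM in PAGE2B. A count of 0 allows up to 3 reads per library, which for CTAG1B is 0.140 to 0.185 FPKM in NCI-H1975. Intervals and floors cover counting error only. Near-identical copies can lose reads when a counter discards multiple matches, and the labels do not name the counter: CTAG1A and CTAG1B share 90.3% and 89.9% of their 50-base words with another gene.

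The 11 members that reached 1 FPKM in 2 libraries of a table were PRAME, MEIOB, CT45A1, CT45A2, CT45A7, XAGE1A, XAGE1B, MAGEA3, MAGEA6, MAGEB2 and SSX2IP. Just below that limit lay CT45A5, with a highest value of 0.966 FPKM, and CTAGE8, with 0.826 FPKM. SSX2IP, a centrosome and junction protein named for binding an SSX protein, is a prefix match, with 2.56 to 4.70 FPKM over the 12 NCI-H1975 libraries and 5.44 and 5.70 FPKM in HCC827. The 6 CTAGE genes stayed at or below 0.826 FPKM.

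**Figure D1:**
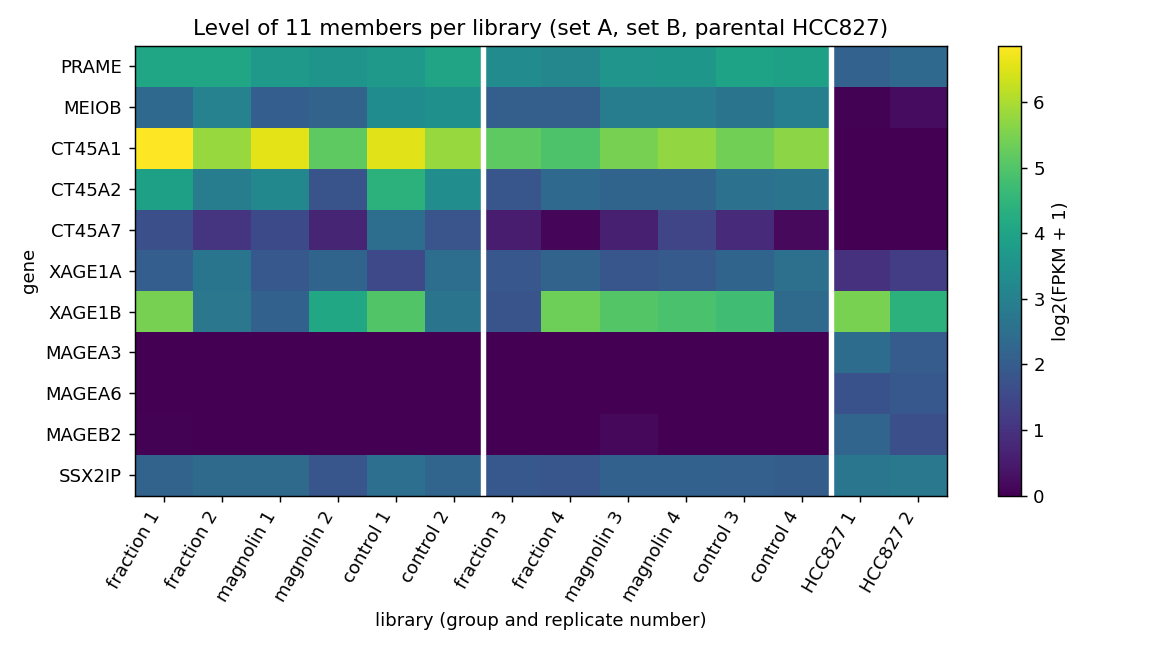
Level of the 11 members that reached 1 FPKM, as log2(FPKM + 1) by colour, with genes in rows and libraries in columns (set A, set B and parental HCC827, separated by white lines). The MAGEA3, MAGEA6 and MAGEB2 rows are bright only in HCC827, the 3 CT45 rows are at 0 there, and XAGE1B alternates between bright and dim within groups.

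The cell lines carried different antigen genes. These levels are set side by side without a test, because the tables were normalized separately. MAGEA3 (chrX:152698752-152702347, hg38, plus strand) had 4.34 and 3.004 FPKM in HCC827 and 0 reads in all 12 NCI-H1975 libraries, where 3 reads would be 0.0784 to 0.103 FPKM. MAGEA6 (chrX:152766136-152769747, minus strand) had 2.31 and 2.67 FPKM in HCC827 and 0 reads in all 12 NCI-H1975 libraries. Both are type I MAGE proteins, and their transcripts share 56.5% (MAGEA3) and 53.9% (MAGEA6) of their 50-base words with another gene, so the split between them is uncertain. MAGEB2 (chrX:30215560-30220089, plus strand), which shares none, had 3.69 and 2.19 FPKM in HCC827. In NCI-H1975 it had 4 reads in total, with 10 of 12 libraries at 0. MAGEC2 reached 0.213 and 0.319 FPKM in HCC827 and had 1 read in NCI-H1975.

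CT45 showed the opposite pattern. CT45 proteins are nuclear antigens of the testis. No member of the family had a read in HCC827, where 3 reads on CT45A1 would be 0.131 and 0.137 FPKM. In NCI-H1975, CT45A1 (chrX:135713453-135723539, plus strand) ran between 29.8 and 115 FPKM and was the highest member. MEIOB (chr16:1833987-1884294, minus strand) had 0.0263 and 0.176 FPKM in HCC827 (1 and 7 reads) and 3.16 to 9.83 FPKM in NCI-H1975. PRAME (chr22:22547701-22559361, minus strand) was on in both lines, with 3.42 and 4.05 FPKM in HCC827 and 8.06 to 15.4 FPKM in NCI-H1975, so the lines did not overlap. XAGE1B (chrX:52512077-52520803, minus strand) did overlap, with 43.5 and 20.2 FPKM in HCC827 and 2.43 to 42.9 FPKM in NCI-H1975. XAGE1A (chrX:52495676-52500812, plus strand) had 0.963 and 1.35 FPKM in HCC827, below the 1.86 to 5.38 FPKM of NCI-H1975.

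Other germline genes also differed between the lines. Of 53 germline and testis-restricted genes listed beside the members, 4 reached 1 FPKM in 2 libraries of HCC827 and 6 in NCI-H1975, 2 of them in both lines, and 18 had no read anywhere. BRDT, the testis bromodomain protein, had 3.60 and 4.46 FPKM in HCC827 and 0 reads in NCI-H1975. DDX43, a helicase antigen, had 5.38 and 6.28 FPKM in HCC827 and 0 to 0.189 FPKM in NCI-H1975. HORMAD1, a meiotic chromosome axis protein, had 0 reads in HCC827 and 0.599 to 3.47 FPKM in NCI-H1975. CT83 was shared, with 20.4 and 19.3 FPKM in HCC827 and 10.1 to 29.1 FPKM in NCI-H1975. CTCFL, the testis paralogue of CTCF that can open antigen promoters, had 0 reads in HCC827 and 4 in NCI-H1975.

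**Figure D2:**
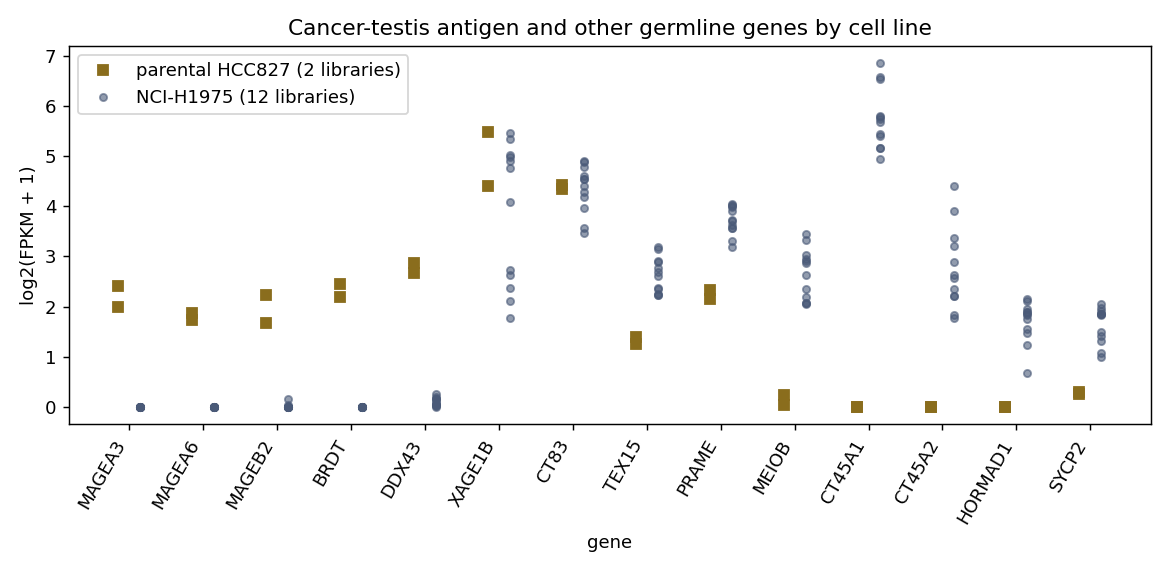
Level of 14 antigen and other germline genes as log2(FPKM + 1), with parental HCC827 (squares, 2 libraries) left of NCI-H1975 (circles, 12 libraries, all groups). MAGEA3, MAGEA6, MAGEB2, BRDT and DDX43 are high in HCC827 and at or near 0 in NCI-H1975, and CT45A1, CT45A2, HORMAD1 and MEIOB show the reverse.

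In set B PRAME and MEIOB were lower with the chloroform fraction than in control. Of the 7 members tested these 2 fell and none rose, where 11.6% of the 14673 genes tested fell and 19.9% changed in either direction. PRAME had 8.85 and 8.06 FPKM with the fraction and 14.8 and 14.0 FPKM in control, and the groups did not overlap. Its mean was 8.46 ± 0.553 FPKM with the fraction and 14.4 ± 0.542 FPKM in control (SD, n = 2 each), a log2 change of -0.70 (SE 0.0811, limma adjusted p = 0.00390), and its call held under all 12 alternatives. MEIOB had 3.20 and 3.21 FPKM with the fraction and 5.20 and 6.77 FPKM in control, again with no overlap. Its log2 change was -0.72 (SE 0.122, limma adjusted p = 0.0120). MEIOB did not pass without control replicate 4 (log2 change -0.56, adjusted p = 0.0642) or without the filter on low values (adjusted p = 0.0508).

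The remaining tested members did not pass in that comparison. CT45A1 had 34.6 and 29.8 FPKM with the fraction and 41.3 and 50.03 FPKM in control (log2 change -0.49, limma adjusted p = 0.0615). CT45A2 had 2.56 and 4.08 FPKM with the fraction and 4.93 and 5.18 FPKM in control (log2 change -0.51, adjusted p = 0.0890). Both CT45 genes were lower in each fraction library than in each control library. With limma voom on rebuilt reads CT45A1 also passed (adjusted p = 0.00935), and without fraction replicate 4 CT45A2 passed (adjusted p = 0.00977). The median log2 change of the 7 tested members was -0.49, against -0.01 over all genes tested.

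Several measures moved with the fraction in set B. Mitochondrial transcripts took 8.17% and 7.04% of reads with the fraction, 6.40% and 6.38% with magnolin and 5.84% and 5.84% in control. The summed level of the 3 fibroblast markers was 9.70 to 10.2 FPKM with the fraction, 14.7 to 15.2 FPKM with magnolin and 19.0 to 24.1 FPKM in control, with DCN at 0 in 5 of the 6 libraries. The summed level of the 2 endothelial markers was 0.814 to 0.884 FPKM with the fraction, 1.47 to 1.69 FPKM with magnolin and 4.27 to 6.21 FPKM in control. Leukocyte markers were at or near 0. The summed level of the 6 epithelial markers was 410 and 449 FPKM with the fraction, 445 and 440 FPKM with magnolin and 619 and 613 FPKM in control. Not every epithelial marker followed the sum. KRT8, KRT18, KRT19 and, by a small margin, CDH1 were lower in both fraction libraries than in both control libraries. KRT7 overlapped, with 58.26 and 71.04 FPKM with the fraction and 58.78 and 61.21 FPKM in control. EPCAM overlapped as well. The part of these measures in the PRAME and MEIOB results was not tested. MEIOB exons overlap 177 bases of FAHD1 on the opposite strand, and reads inside those bases cannot be told apart because the strand setting is unknown. FAHD1 had 19.2 and 20.2 FPKM with the fraction and 16.8 and 17.1 FPKM in control, so both fraction libraries were above both control libraries. In bulk RNA, fewer expressing cells and less RNA per cell cannot be told apart.

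The fraction was also set against magnolin in set B, a comparison that shares the fraction libraries with the one above. MEIOB had 3.20 and 3.21 FPKM with the fraction and 6.32 and 6.53 FPKM with magnolin (log2 change -0.82, SE 0.122, limma adjusted p = 0.0134). PRAME had 8.85 and 8.06 FPKM with the fraction and 10.8 and 11.3 FPKM with magnolin (log2 change -0.35, SE 0.0811, limma adjusted p = 0.0389). These 2 of 7 tested members fell and none rose, where 9.36% of all genes tested fell and 14.9% changed in either direction. PRAME did not pass when magnolin replicate 3 (adjusted p = 0.140), magnolin replicate 4 (0.205), control replicate 3 (0.0861), control replicate 4 (0.0867) or fraction replicate 4 (0.0708) was left out. It also did not pass without the filter on low values (0.0799) or with the 2 groups alone (0.0854). MEIOB did not pass without magnolin replicate 3 (adjusted p = 0.0736), magnolin replicate 4 (0.0983) or the filter (0.0548).

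Magnolin against control gave no call among the 7 members in set B by limma, where 0.627% of all genes tested were called. At an unadjusted p under 0.05 were 2 members, PRAME and XAGE1A, and 2083 of all 14673 genes tested. PRAME had 10.8 and 11.3 FPKM with magnolin and 14.8 and 14.0 FPKM in control, without overlap (log2 change -0.35, SE 0.0811, limma adjusted p = 0.144). With limma voom on rebuilt reads PRAME passed (adjusted p = 0.0431). XAGE1A had 2.59 and 2.82 FPKM with magnolin and 3.60 and 4.78 FPKM in control, also without overlap (log2 change -0.48, SE 0.159, limma adjusted p = 0.264). MEIOB had 6.32 and 6.53 FPKM with magnolin and 5.20 and 6.77 FPKM in control, and the groups overlapped.

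**Figure D3:**
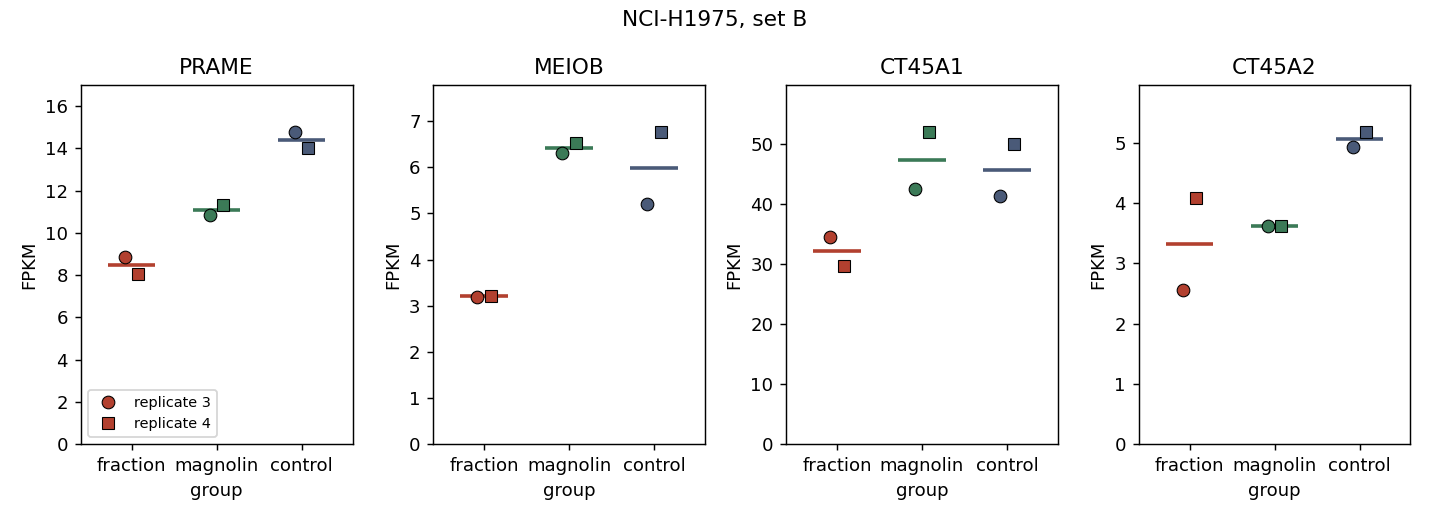
FPKM of PRAME, MEIOB, CT45A1 and CT45A2 in set B by group (fraction, magnolin, control), with circles for replicate 3, squares for replicate 4 and a bar at the mean of 2. The fraction points of PRAME lie at 8.06 and 8.85 FPKM, below both other groups, and those of MEIOB lie at 3.20 and 3.21 FPKM.

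In set A no member passed in any of the 3 comparisons in the fit without a replicate block, which was also true of all 13103 genes tested (0%). By limma, 0 members had an unadjusted p under 0.05 for the fraction against control, 0 for the fraction against magnolin and 1 for magnolin against control, and voom called 0 members in each. Of all 13103 genes tested, 107, 93 and 255 had such a p in these comparisons, in the same order. The replicate numbers pair the libraries of set A, and with the number as a block magnolin against control called 3 of 8 members, all lower, where 0.992% of all genes changed and 0.511% fell. CT45A2 had 8.24 and 2.42 FPKM with magnolin and 20.2 and 9.26 FPKM in control for replicates 1 and 2 (log2 change -1.39, SE 0.188, limma adjusted p = 0.00520 with the block). MEIOB had 3.16 and 3.55 FPKM with magnolin and 9.10 and 9.83 FPKM in control (log2 change -1.27, SE 0.192, limma adjusted p = 0.00802 with the block). CT45A7 had 1.92 and 0.642 FPKM with magnolin and 4.55 and 2.48 FPKM in control (log2 change -1.01, SE 0.189, limma adjusted p = 0.0252 with the block). For all 3 genes each magnolin library was below each control library. CT45A1, which took most reads of the CT45 family, did not pass and its groups overlapped. It had 94.2 and 34.9 FPKM with magnolin and 92.2 and 54.1 FPKM in control (log2 change -0.29, limma adjusted p = 0.567 with the block). Leaving out 1 library, in the fit without the block, moved the CT45 values. Such a fit sets 1 replicate number of a group against both numbers of the other. These moves therefore cannot be told apart from the difference in CT45 between replicate numbers. CT45A2 had a log2 change of -2.11 without magnolin replicate 1, -0.67 without magnolin replicate 2 and -0.87 without control replicate 1. CT45A7 had -1.42 without magnolin replicate 1, -0.59 without magnolin replicate 2 and -0.67 without control replicate 1. The summed level of the 2 endothelial markers was 0.164 and 0.902 FPKM with magnolin and 0.272 and 2.37 FPKM in control, and that of the 3 fibroblast markers was 1.93 and 12.8 FPKM with magnolin and 2.66 and 13.3 FPKM in control. Their part in these results was not tested.

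These members were not called for magnolin in set B, and the difference between the sets was not tested. In set B MEIOB had a log2 change of 0.10 between magnolin and control (limma adjusted p = 0.772), and CT45A2 had -0.39 (adjusted p = 0.377). CT45A7 reached 1 FPKM in just 1 library of set B and was not tested there. For the fraction in set A, MEIOB had 4.09 and 7.16 FPKM with the fraction and 9.10 and 9.83 FPKM in control. No member passed with the block for the fraction against control, where 0.183% of genes did, and the smallest adjusted p was 0.132, for CT45A7. Against magnolin the share of genes called was again 0.183%, and the smallest adjusted p among members was 0.0741, for CT45A2. PRAME was called in no comparison of set A, with 15.4 and 15.3 FPKM with the fraction, 12.1 and 10.8 FPKM with magnolin and 12.02 and 15.1 FPKM in control.

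CT45A2 (chrX:135811668-135820012, minus strand) and CT45A7 (chrX:135829247-135837268, minus strand) share 96.1% and 100% of their 50-base words with another gene, and CT45A1 shares 83.7%, so their separate values are uncertain. CT45A1 took 78.7% to 92.2% of the reads of the family. Summed over the 9 CT45 genes, set A libraries had 176 and 82.8 RPM (reads scaled to library depth) with the fraction, 141 and 51.1 with magnolin and 154 and 87.4 in control for replicates 1 and 2. Set B libraries had 50.7 and 46.3 RPM with the fraction, 61.9 and 75.0 with magnolin and 64.3 and 74.4 in control. In the sum, the groups of set A overlapped and the replicate number divided the libraries, while in set B both fraction libraries were lowest.

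Libraries of replicate 1 were higher in CT45 than those of replicate 2. CT45A1 had 92.2 to 115 FPKM in the 3 replicate 1 libraries and 34.9 to 54.7 FPKM in the 3 replicate 2 libraries (log2 difference 1.07, SE 0.184, limma adjusted p = 0.000336, group as a block). CT45A2 differed by 1.17 (SE 0.153, adjusted p = 3.41e-05) and CT45A7 by 0.71 (SE 0.154, adjusted p = 0.00215) on the log2 scale, both higher in replicate 1. XAGE1A was lower in replicate 1, by a log2 difference of -0.64 (SE 0.157, adjusted p = 0.00501), and did not pass without control replicate 1 (adjusted p = 0.0577) or control replicate 2 (adjusted p = 0.0594). With no group block CT45A2 (adjusted p = 0.0546) and CT45A7 (0.113) did not pass, and without the filter on low values CT45A7 (0.0625) and XAGE1A (0.115) did not. These 4 of 8 members compare with 39.7% of all genes called, 20.5% higher and 19.3% lower, so the share of members lay near the background. Summed levels of cell type markers split the same libraries, though not every marker did. The summed epithelial level was 1111 to 1313 FPKM in replicate 1 and 393 to 581 FPKM in replicate 2, with no overlap. KRT8 (119 to 134 FPKM in replicate 1 and 118 to 171 FPKM in replicate 2) did overlap. So did KRT18 (170 to 205 FPKM in replicate 1 and 96.3 to 174 FPKM in replicate 2). The summed fibroblast level was 1.93 to 3.16 FPKM in replicate 1 and 12.8 to 19.0 FPKM in replicate 2. Most of that gap was COL1A2 (0.543 to 1.14 FPKM against 10.2 to 16.3 FPKM), and DCN was at 0 in these libraries. The summed endothelial level was 0.134 to 0.272 FPKM in replicate 1 and 0.902 to 2.37 FPKM in replicate 2. Their part was not tested. Replicates 3 and 4 of set B differed in 0 of 7 members by limma and 0 by voom, and in 0% of all genes by limma. At an unadjusted p under 0.05 were 1 member and 552 of all 14673 genes tested.

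**Figure D4:**
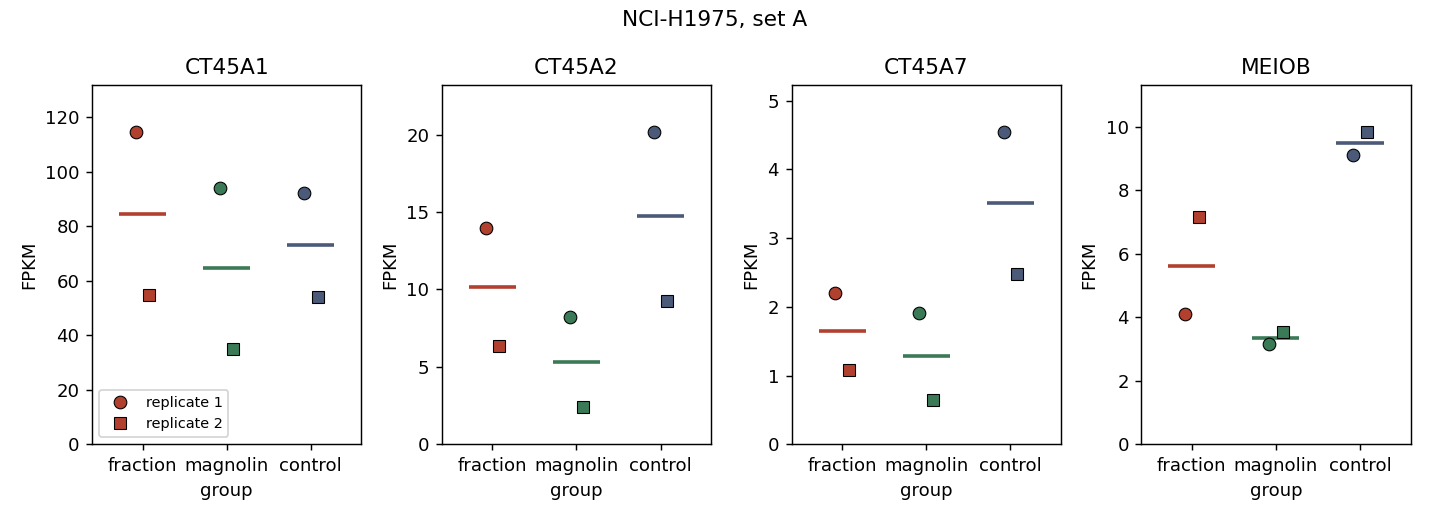
FPKM of CT45A1, CT45A2, CT45A7 and MEIOB in set A by group (fraction, magnolin, control), with circles for replicate 1, squares for replicate 2 and a bar at the mean of 2. Every circle lies above the square of its group in the 3 CT45 panels, and both magnolin points lie below both control points for CT45A2, CT45A7 and MEIOB.

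XAGE1B swung widely between replicates of the same group. XAGE1 is an X-linked antigen reported often in lung adenocarcinoma. In set B it had 2.43 and 39.4 FPKM with the fraction, 31.7 and 28.8 FPKM with magnolin and 26.0 and 4.17 FPKM in control, that is 56 and 921, 761 and 675, and 639 and 99 reads. In set A it had 42.9 and 5.60 FPKM with the fraction, 3.34 and 15.9 FPKM with magnolin and 30.6 and 5.19 FPKM in control. Replicate 1 was the higher library with the fraction and in control, and the lower one with magnolin. XAGE1B was not called in any comparison by limma on log2(FPKM + 1) with all libraries, and for replicate 1 against 2 its log2 difference was 1.04 (adjusted p = 0.163). That comparison called it with voom (log2 difference 1.38, adjusted p = 4.42e-11). Leaving out either magnolin library gave a log2 difference of 2.54. With the group as a block, the magnolin library that is left adds nothing to this value. Both settings therefore rest on the fraction and control libraries alone, without the group that went the other way. Its widest gap between replicates of a group in set B was 3.56 on the log2 scale, first of 11196 protein-coding genes, whose median gap was 0.21. Among all 14673 genes tested it was at place 3, with a median gap of 0.24. In set A the widest gap was 2.73, at place 68 of 11009 protein-coding genes and at place 96 of all 13103 genes tested.

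The gap did not appear in XAGE1A, all of whose 50-base words also occur in XAGE1B. XAGE1A had 39 to 107 reads in the 12 NCI-H1975 libraries. XAGE1B took 53.5% to 62.2% of the XAGE1 reads in 5 libraries, namely fraction replicates 2 and 3, magnolin replicate 1 and control replicates 2 and 4, and 85.4% to 95.6% in the other 7. These values fall in 2 separate ranges with none between, and each group has libraries in both. The gap also appeared in the sum of XAGE1A and XAGE1B. In set B the sum was 6.39 and 60.7 RPM with the fraction, 47.4 and 43.3 with magnolin and 41.5 and 11.1 in control. In set A it was 65.0 and 13.8 RPM with the fraction, 7.73 and 26.8 with magnolin and 44.9 and 12.3 in control. How the authors' counting treated reads that match both copies is unknown, and its part in the XAGE1B values was not tested.

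**Figure D5:**
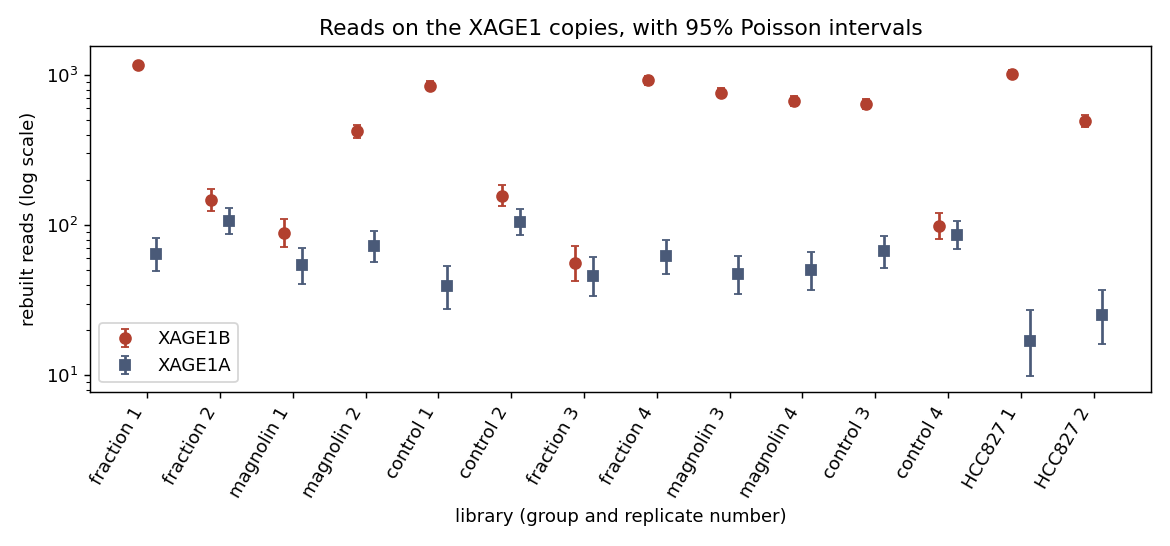
Rebuilt reads on XAGE1B (circles) and XAGE1A (squares) per library on a log axis, with exact 95% Poisson intervals that cover counting error only. XAGE1B ranges between 56 and 1158 reads in NCI-H1975, while XAGE1A stays between 39 and 107 reads.

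Genes of DNA methylation and chromatin silencing, and partners of the antigens, were counted from lists beside the members. The first list is not limited to genes that silence, and it also holds TET1, TET2, TET3, TDG and CTCFL. Of 25 tested DNA methylation and chromatin silencing genes, 8 were lower with the fraction than in control in set B, 17 did not pass and none was higher, where 11.6% of all genes were lower. UHRF1, which brings the maintenance methyltransferase to newly copied DNA, had 14.1 and 20.3 FPKM with the fraction and 34.4 and 39.6 FPKM in control (log2 change -1.08, limma adjusted p = 0.0101). DNMT1, that methyltransferase, had 35.6 and 40.2 FPKM with the fraction and 59.6 and 61.2 FPKM in control (log2 change -0.66, adjusted p = 0.00432). SUV39H1, a histone methyltransferase of silent chromatin, had a log2 change of -0.82 (adjusted p = 0.00392), and DAXX, a histone chaperone, had -0.58 (adjusted p = 0.0111). The silent members MAGEA3, MAGEA6 and CTAG1B had 0 reads in the fraction libraries as in control. The list's median log2 change was -0.22, against -0.01 over all genes. In set A the fraction against control called 0 of the 24 genes of this list that were tested, with or without the replicate block. Of all genes 0% were called there without the block and 0.183% with it. In set A the log2 change was -0.11 for UHRF1, 0.015 for DNMT1, 0.015 for SUV39H1 and -0.16 for DAXX.

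Among the other germline genes 1 of 5 tested fell with the fraction in set B, where 11.6% of all genes fell. SYCP2, a protein of the synaptonemal complex, had 0.987 and 1.11 FPKM with the fraction and 2.59 and 2.94 FPKM in control (log2 change -0.88, SE 0.122, limma adjusted p = 0.00673). Of 11 tested partners of the antigens 3 fell, where 11.6% of all genes fell and 19.9% changed in either direction. They are subunits of replication protein A, to which MEIOB binds: RPA3 with a log2 change of -0.67, RPA1 with -0.46 and RPA2 with -0.29. TRIM28, the MAGE partner ligase, had 142 and 185 FPKM with the fraction and 176 and 178 FPKM in control and did not pass (adjusted p = 0.508). Of the 6 tested MAGE genes of the ubiquitous type none passed, and MAGEH1 came closest (log2 change 0.40, adjusted p = 0.0546). In set A the fraction against control called 0 of the 46 genes tested from all lists, by limma and by voom. Magnolin against control called 0 of 46 listed genes by limma in each set, with 1 gene in each at an unadjusted p under 0.05 and 0 by voom. For magnolin against control, 255 of all 13103 genes tested in set A and 2083 of 14673 in set B had such a p.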

How the data were processed

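Total RNA of cultured cells was sequenced, and the authors deposited FPKM per gene in 3 tables. The build was hg38 per the submitters' processing notes and the aligner, counter and strand setting have no entry in those notes or the labels. The HCC827 table has 2 columns whose names match no sample label, so they were not used and afatinib-resistant HCC827 cells were not analysed here. FPKM times gene length came to whole reads (tolerance 0.05, genes of up to 2000 reads), and the rebuilt reads served for depth, shares and limma voom. Genes reaching 1 FPKM in 2 or more libraries of a table entered the tests as log2(FPKM + 1) with limma 3.58.1 (mean trend) in R 4.3.3, the 3 groups sharing 1 spread, with Benjamini-Hochberg adjustment over all genes tested and a threshold of 0.05. Fold changes on this scale understate changes of low genes. Shared words are 50-base stretches of GENCODE release 29 transcripts, whose coordinates matched those of all 92 members.

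Pairing was checked by correlating the deviations of same-numbered libraries from their group means. It was 0.74 to 0.78 over the 3 pairs of groups in set A, so the numbers pair those libraries, and -0.03 to 0.03 in set B, so they do not. The labels give the numbers only. Alternatives were the replicate block, a pseudocount of 0.1, no filter, median-ratio rescaling, voom, the 2 groups alone, and leaving out each library. Named members are those reaching 1 FPKM in 2 libraries of a table or called, with up to 4 called genes per companion list, largest change first. The members and lists were chosen with earlier results of these data known.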

Additional observations from a re-analysis of the deposited data

How the results depend on the processing

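Over 128 alternatives for single members no log2 change reversed, but some of these settings could not have moved it. Between groups, the replicate block, no filter and the 2 groups alone leave the log2 change as it was. So does leaving out a library of the group not compared. For replicate 1 against 2, no filter and no group block do the same. The 128 also cover only members that were called in a comparison. PRAME in the fraction against control of set B passed in all 12 of its alternatives. In that comparison 2 members were called, 1 without the filter on low values, and 1 to 3 when single libraries were left out. For the fraction against magnolin in set B the count of 2 became 0 without the filter, 1 with the 2 groups alone, 1 with the replicate block and 0 to 2 when single libraries were left out. PRAME is the member lost under the block (adjusted p = 0.0719). For magnolin against control the count of 0 became 3 in set A with the replicate block and 1 in set B with voom. For replicate 1 against 2 the count of 4 became 2 with no group block, and was 3 to 5 when single libraries were left out, the fifth being XAGE1B. The block changed no other member's call. In the list of DNA methylation and chromatin silencing, the 8 genes lower with the fraction than in control in set B became 5 with the block. The 3 partners became 2, without RPA2 (limma adjusted p = 0.0683). Median-ratio rescaling changed no call and moved the log2 changes little, since the deposited values already had equal factors within a set (1.0092 in set A and 1.0093 in set B). Where 1 library of a group is left, it is assumed to vary like the other groups. Depth limits members with few reads, and shared sequence limits the CT45, XAGE1 and MAGEA copies. The cause of these changes was not tested.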
